A study of Oryza sativa with 12 samples.

Results

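In rice roots 40 probe sets read a clear signal without arsenate and lost most of it with arsenate in both varieties studied, Azucena and Bala. They were chosen from 57258 rice probe sets of the Affymetrix Rice Genome array, after 123 array control probe sets were set aside. The rule asked for a signal above 100 on all 6 control arrays and, in each variety, a highest arsenate signal below the lowest control signal divided by 4. Probe sets of named zinc, iron, manganese, phosphate, silicon, ammonium and lipoxygenase families were left out by name, which removed 2, OsZIP1 and OsPht1;2. The values that chose the members are the signals with and without arsenate, so the falls are given as a description with no test. The members carry 37 cluster numbers of the array design, and 28 of the 40 were annotated to 27 genes.

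The study measured root RNA of 4 groups with 3 arrays each: Azucena control, Azucena with arsenate, Bala control and Bala with arsenate. The hydroponic solution held no arsenate or 1 ppm (13.3 uM) of it, seedlings stayed in it for 7 days with 12 hours of light, and each sample pooled 100 mg of root from 4 plants sharing a pot. Replicates 1, 2 and 3 were independent experiments grown at different times, each with all 4 groups. No genotype other than the 2 varieties and no agent other than arsenate is given, and the extracts are of whole roots. Azucena is known as the more arsenate-sensitive variety and Bala as the more tolerant.

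Arsenate resembles phosphate, and plant roots take it up through phosphate transporters. Inside the cell it is reduced to arsenite, which binds thiols and is carried by silicon channels and exporters, and root growth and nutrient uptake are known to suffer. The annotation used here gave a gene name to only 2 members, AOS4 and 4CLL7. The other annotated members carry locus numbers without a description, so no role is given for them.

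AOS4 (also CYP74A4), on chromosome 2, belongs to the allene oxide synthases, P450 enzymes that take lipoxygenase products into the synthesis of jasmonate, a hormone of wounding and defence. In Azucena its signal was 1652.3, 1617.4 and 1851.6 in controls and 24.9, 63.9 and 262.6 with arsenate, in the order of experiments 1 to 3. In Bala it was 723.9, 345.4 and 423.9 in controls and 84.5, 77.4 and 70.1 with arsenate. The Azucena controls lay above all Bala controls, while the arsenate ranges of the varieties overlapped. The ratio of mean control to mean arsenate signal was 14.6 in Azucena and 6.44 in Bala. AOS4 was the member closest to the limit, with a lowest Bala control 4.09 times the highest Bala arsenate signal. Its variety difference in controls, Bala minus Azucena on the log2 scale, was -1.84 ± 0.64 (SE, n = 3 arrays per group), with a 95% interval from -3.30 to -0.39, and did not pass over all probe sets tested (limma adjusted p = 0.0998).

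4CLL7, on chromosome 7, is named for its likeness to 4-coumarate CoA ligases, the enzymes that activate cinnamic acids for lignin and flavonoids. Its Azucena signals were 688.3, 634.5 and 413.5 in controls and 41.8, 37.6 and 53.4 with arsenate. In Bala they were 669.5, 717.2 and 495.9 in controls and 80.2, 44.4 and 79.9 with arsenate. The varieties overlapped in both conditions, and control 3 was the lowest control of each. Mean signals were 13.1 times lower with arsenate in Azucena and 9.21 times in Bala. The variety difference in controls was 0.13 ± 0.30, with a 95% interval from -0.54 to 0.81.

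Relatives of the 2 named members were looked up by name after the members' values had been seen. Beside AOS4, whose fall the rule required, 2 genes named as allene oxide synthases were measured, and 1 of them fell in each variety by limma (adjusted p under 0.05). It was the AOS gene on chromosome 3 of probe set Os.8266.1.A1_at, from a mean signal of 83.6 to 41.5 in Azucena and from 153.9 to 36.6 in Bala, and its control and arsenate arrays did not overlap in either variety. Of 6 genes other than 4CLL7 named as 4-coumarate CoA ligases or their likes 1 fell in each variety, the 4CL gene of probe set Os.52921.1.S1_at, from 360.3 to 59.5 in Azucena and from 615.3 to 153.1 in Bala. In the list of 24 jasmonate genes (lipoxygenases, OPR reductases and JAZ repressors) 4 rose and 1 fell in Azucena, and 4 rose and 3 fell in Bala, with median log2 changes of 0.37 and -0.51. OsOPR1, OsOPR4 and OsOPR6, genes of OPR reductases, rose in both varieties, LOX9 rose in Azucena and OsOPR5 in Bala. LOX3 fell in both, from a mean of 389 to 53.7 in Azucena and from 852 to 83.5 in Bala. Among 23 genes with a P450 name other than AOS4, 7 rose and 3 fell in Azucena, and 1 rose and 6 fell in Bala. Beside these counts, limma called 10.3% of all 28461 tested probe sets lower and 10.7% higher in Azucena, and 5.68% lower and 6.19% higher in Bala.

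The largest falls were of members with a locus number or a probe set number only. LOC4329797 on chromosome 2 had the largest fall averaged over the varieties. Its Azucena signals were 1142.1, 565.6 and 2604.7 in controls and 3.0, 0.6 and 9.1 with arsenate. In Bala they were 3512.9, 3632.3 and 4799.8 in controls and 12.8, 7.7 and 74.9 with arsenate. All 3 Azucena arsenate signals lay below 9.4, the median of all signals in the file, where the size of a ratio is set by signals close to 0. The file gives no detection calls. With arsenate signals below 9.4 counted as 9.4, its mean signal was 153 times lower with arsenate in Azucena and 123 times in Bala.

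LOC4347027 on chromosome 9 was the member with the highest mean control signal in each variety. Its controls read 6300.5, 7319.1 and 5611.6 in Azucena and 5881.0, 3508.9 and 4656.1 in Bala. With arsenate the signals were 32.8, 34.2 and 87.6 in Azucena and 18.0, 10.3 and 91.5 in Bala. Mean signals were 124 and 117 times lower, and the varieties overlapped in both conditions. Its probe set carries the _s_at suffix, which marks probes shared by several transcripts.

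Probe set OsAffx.14165.1.S1_at, which has no annotated gene, read 905.0, 577.4 and 914.5 in Azucena controls and 869.9, 296.0 and 1881.4 in Bala controls. With arsenate it read 1.6, 1.3 and 3.0 in Azucena and 1.8, 1.3 and 12.3 in Bala. With the same floor of 9.4 the mean fell 85.0-fold and 98.0-fold. OsAffx.14165.1.S1_x_at, of the same design cluster, read at most 3.7 with arsenate in Azucena and at most 19.9 in Bala, and at least 340.7 in any control. These 2 probe sets are readings of one design cluster and not separate genes.

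LOC4325841 on chromosome 1 was a member through 2 probe sets. On Os.9827.1.S1_at it read 1755.9, 1638.6 and 1789.9 in Azucena controls and 21.6, 8.0 and 39.9 with arsenate. In Bala that probe set read 1437.3, 739.0 and 2394.0 in controls and 22.5, 28.9 and 27.7 with arsenate. The mean was 74.6 times lower in Azucena and 57.8 times in Bala, and on Os.9827.1.S1_a_at 71.5 and 44.7 times lower. The remaining reading of the cluster, Os.9827.2.S1_x_at, has no annotated gene and was 67.7 and 64.2 times lower. On all 3 the second Bala control was the lowest control.

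LOC4342187 on chromosome 7 kept a higher signal with arsenate in Bala than in Azucena. Its controls read 1763.6, 1672.4 and 2086.3 in Azucena and 1884.3, 1458.3 and 2965.0 in Bala. With arsenate it read 11.3, 14.2 and 23.1 in Azucena and 57.1, 82.0 and 81.9 in Bala. The controls of the varieties overlapped and the arsenate groups did not, and mean signals were 114 times lower in Azucena and 28.5 times in Bala.

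OsAffx.30196.1.S1_at and Os.8360.1.S1_at, without an annotated gene, complete the 10 largest mean falls. OsAffx.30196.1.S1_at read 572.8, 441.3 and 887.0 in Azucena controls and 2350.8, 958.5 and 4087.9 in Bala controls. With arsenate it read 6.4, 0.9 and 7.7 in Azucena and 23.9, 49.4 and 40.6 in Bala. Os.8360.1.S1_at read 313.2, 263.4 and 662.6 in Azucena controls and 1219.5, 710.6 and 1555.6 in Bala controls. With arsenate it read 0.7, 7.7 and 2.8 in Azucena and 15.0, 25.7 and 48.0 in Bala. In both, every Bala array lay above every Azucena array of the same treatment.

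**Figure D1:**
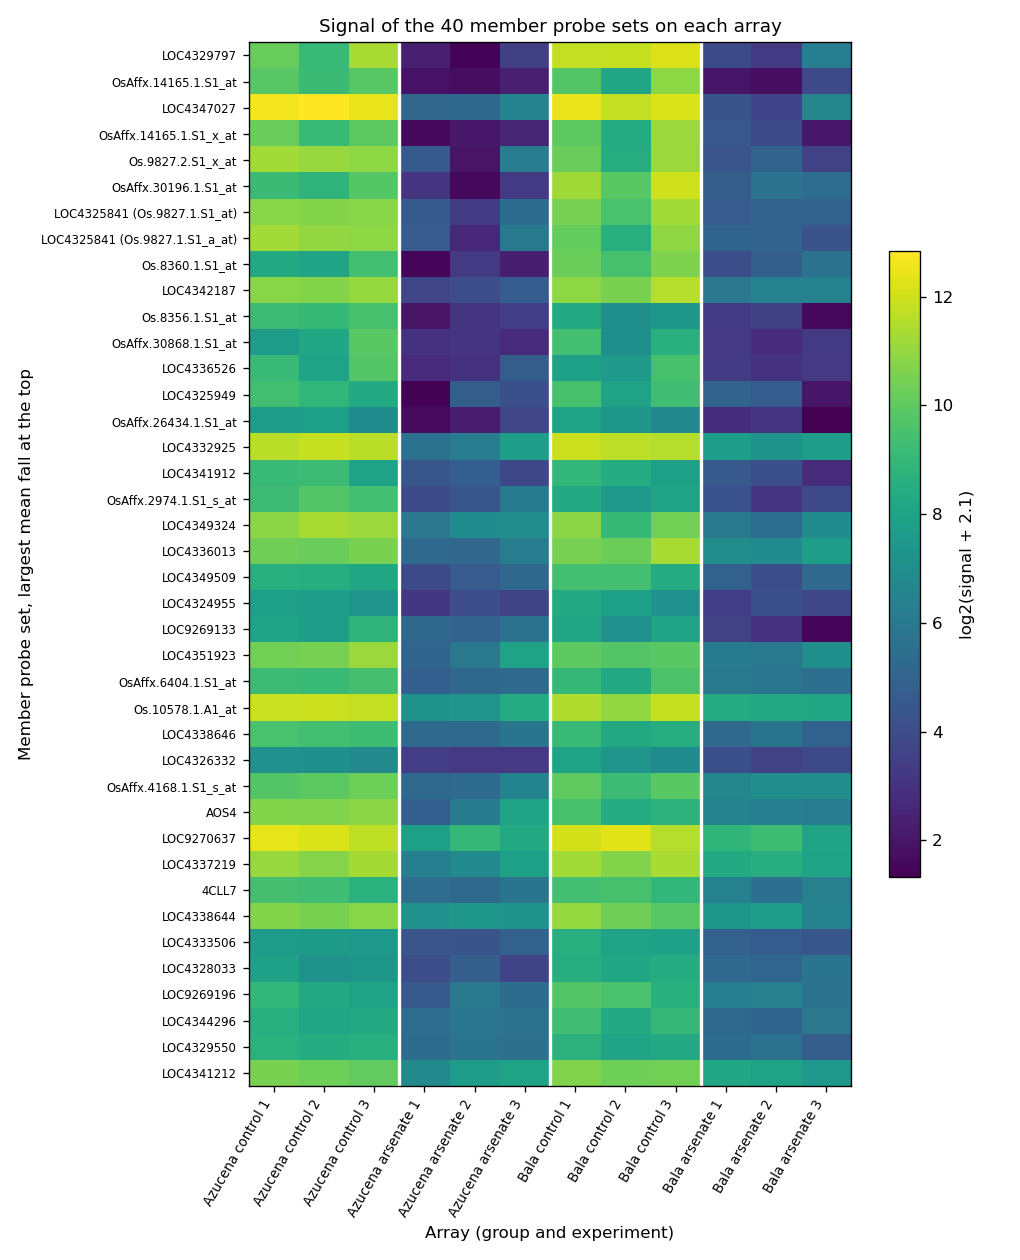
Signal of each of the 40 members (rows, largest mean fall at the top) on each of the 12 arrays (columns, by group and experiment), as log2(signal + 2.1) in colour. The control blocks are bright and the arsenate blocks dark in both varieties, with signals as low as 0.5 in Azucena (LOC4325949) and 0.4 in Bala (OsAffx.26434.1.S1_at).

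As a group, the members had a median mean signal of 690.5 in Azucena controls (lowest 126.4, highest 6410) and 767.7 in Bala controls (lowest 175.5, highest 4682). With arsenate the median was 32.05 in Azucena (lowest 1.97, highest 349.8) and 37.6 in Bala (lowest 3.87, highest 445.3). On all 3 arsenate arrays 8 members read below 9.4 in Azucena and 4 in Bala, and 4 and 6 members still read above 100 on all 3. LOC9270637 on chromosome 1 was the member with the highest arsenate means, 349.8 ± 137 (SD, n = 3) in Azucena and 445.3 ± 172 in Bala, from 4495 ± 1013 and 4151 ± 1015 in controls. The ratio of mean control to mean arsenate signal had a median of 20.2 in Azucena (6.68 to 406.3) and 18.6 in Bala (5.90 to 197.9), and it exceeded 10 for 34 members in Azucena and 29 in Bala. The highest ratios rest on arsenate signals below 9.4, and with these counted as 9.4 the highest were 153 and 123 and the medians 18.7 and 18.2.

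The smallest ratios in both varieties were those of LOC4341212 on chromosome 6, with 1254 ± 198 against 187.7 ± 72.4 in Azucena and 1405 ± 201 against 238.1 ± 61.8 in Bala. On the log2(signal + 2.1) scale, where 2.1 is the 25th percentile of all signals, the median change was -4.45 in Azucena and -4.07 in Bala, beside 0.10 and 0.06 over all probe sets tested. All 40 members passed limma in each variety. The rule used this contrast, so the count says nothing beyond the rule.

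The limit cut through a continuum. The members just inside were AOS4, LOC4341212 and LOC9269196, with a lowest control 4.09, 4.15 and 4.32 times the highest arsenate signal in the variety where this ratio was smaller. Just outside were LOC4341540, LOC4345786 and LOC9267450, at 3.98, 3.87 and 3.78. Nearest to the control limit of 100 were OsAffx.26434.1.S1_at, with a lowest control signal of 103.1, LOC4326332 with 104.7 and Os.8356.1.S1_at with 131.1. Of 10548 probe sets above 100 on all controls, 134 (1.27%) met the fold limit in Azucena and 55 (0.521%) in Bala. The 42 that met both, with the 2 left out by name, were 31.3% of the Azucena set and 76.4% of the Bala set. For the 92 that met it in Azucena alone, the median ratio of lowest control to highest arsenate signal was 1.84 in Bala, and for the 13 of Bala alone it was 1.98 in Azucena. Left out by name were OsZIP1, of the ZIP family of zinc transporters, whose mean went from 1737 to 20.7 in Azucena and from 1756 to 71.2 in Bala, and OsPht1;2, a root phosphate transporter, from 1320 to 54.8 and from 1190 to 79.9.

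Over the 40 members the second Bala control lay below its group mean by a median of 0.44 on the log2 scale, with 7 members above the mean, and the third Azucena arsenate array lay above it by 0.52, with 32 members above. Azucena arsenate 1 had a median deviation of -0.42, with 7 members above the mean, and Bala control 1 lay above by 0.29, with 36 members above. Over all probe sets above 100 in controls the medians of these 4 arrays lay between -0.02 and 0.03. In AOS4 the third Azucena arsenate array was the highest at 262.6. The median change in Azucena was -4.85, -4.58 and -3.75 in experiments 1, 2 and 3, and in Bala it was -4.29, -3.65 and -3.73. The smallest change of any member in any experiment was -2.04 in Azucena and -2.13 in Bala. The members varied more between replicates than other bright probe sets, with a median coefficient of variation of 36.7% in Bala controls against 18.5%, and 17.4% in Azucena controls against 12.1%. Without the second Bala control the rule would hold for 63 probe sets. Leaving an array out can only loosen the rule, so all 40 members had to remain among them.

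**Figure D2:**
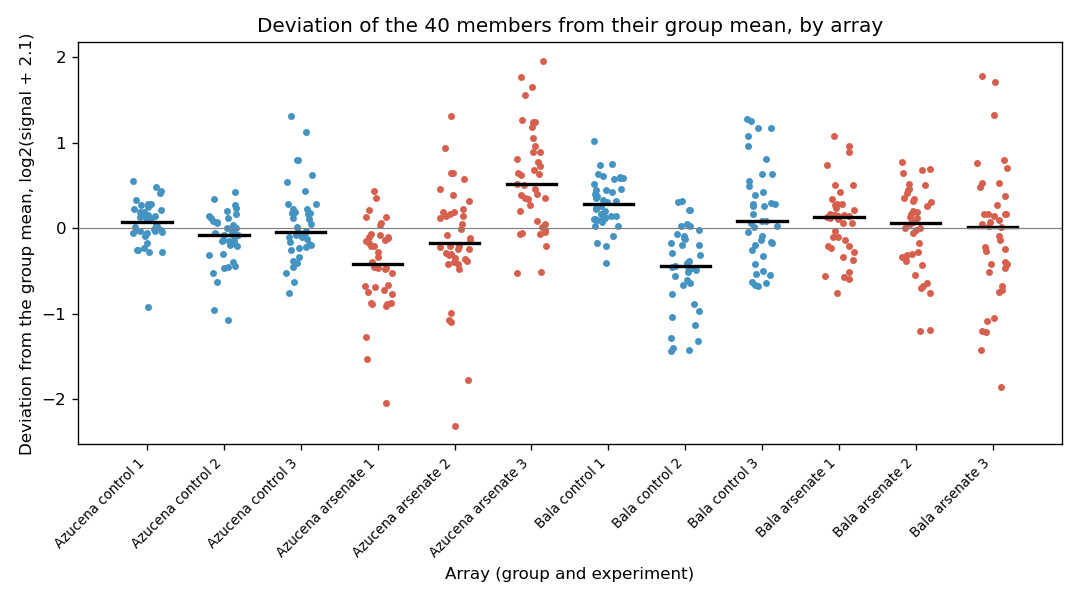
Deviation of each member from its group mean on the log2(signal + 2.1) scale, by array, with controls in blue, arsenate in red and black bars for the median of the 40 members. Bala control 2 and Azucena arsenate 1 sit low, with medians of -0.44 and -0.42, and Azucena arsenate 3 and Bala control 1 sit high, at 0.52 and 0.29.

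The rule treats both varieties alike and did not use which of them fell further. The balance is still computed from the same signals that the rule limited in each variety, so it is a description of the members. It counts probe sets, and all member readings of the Os.9827 and OsAffx.14165 clusters, counted separately, fell further in Azucena. The fall was larger in Azucena for 31 members and in Bala for 9, and it was larger in Azucena in every experiment for 13 and in Bala in every experiment for 3. The change in Bala lay above that in Azucena for 77.5% of the members, beside 49.2% of probe sets above 100 in controls. Those probe sets had a median change of 0.01 in Azucena and -0.02 in Bala, so they are not matched to the members in size of fall. Over all probe sets tested, limma called 10.3% lower in Azucena and 5.68% in Bala. Whether the balance is particular to the members was not tested. The median difference of the responses, Bala minus Azucena, was 0.45 on the log2 scale, beside -0.01 over probe sets above 100 in controls. No single member passed the test of the difference (limma, experiment as a block, 0 of 40 members at an adjusted p under 0.05), beside 26 of all 28461 probe sets tested (0.0914%) and 0% of those above 100 in controls. At an unadjusted p under 0.05 there were 7 of 40, of which 6 fell further in Azucena, beside 10.4% of all probe sets tested and 6.49% of those above 100 in controls. LOC4342187 came closest, with 1.95 ± 0.32, a 95% interval from 1.22 to 2.68 and a limma adjusted p = 0.0743. LOC9269133 on chromosome 4 had the largest difference the other way, -2.15 ± 0.73 with a limma adjusted p = 0.344. With array medians set equal, the median difference of all tested probe sets went from -0.03 to -0.28 and that of the members to 0.20, with 27 members falling further in Azucena.

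**Figure D3:**
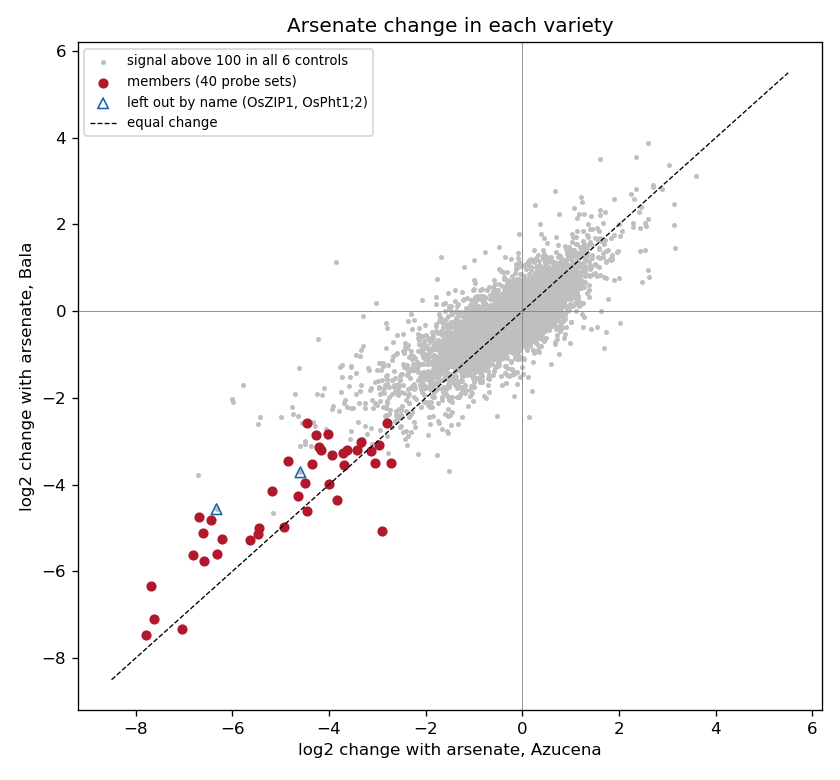
Log2 change with arsenate in Azucena (x axis) and Bala (y axis) for probe sets above 100 in all 6 controls (grey), the 40 members (red) and the 2 left out by name (triangles), with a dashed line of equal change. Most members, 31 of 40, lie above the line, which means a larger fall in Azucena, and LOC9269133 lies furthest below it. Of all probe sets above 100 in controls 49.2% lie above the line, and their median change was 0.01 in Azucena and -0.02 in Bala.

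Without arsenate the members were close to balanced between the varieties. Of the 40, 21 had the lower level in Bala and 19 the higher, the median difference was -0.12, and 31 differed by less than 1 log2 unit. The 19 higher in Bala were 47.5%, beside 53.4% of probe sets above 100 in controls. Past the test (2.68% higher and 3.15% lower of probe sets above 100 in controls, 5.59% and 8.16% of all tested) were 2, both higher in Bala: LOC4329797 by 1.73 ± 0.42 (limma adjusted p = 0.0247) and OsAffx.30196.1.S1_at by 1.78 ± 0.45 (limma adjusted p = 0.0304). Their Bala and Azucena controls did not overlap. The test called 13.8% of all tested probe sets and 5.83% of those above 100 in controls, so that 2 of 40 is near the background. Neither call was firm. The count was 0 without the experiment as a block, 0 without any one of the 3 Azucena controls or the first Bala control, and 1 without Bala control 2 or 3. It was 5, 4 and 4 without Azucena arsenate 1, 2 and 3, and 2 of the members called without Azucena arsenate 1, and 2 of those without 3, were lower in Bala. Below Azucena by over 1 log2 unit without passing were AOS4, Os.8356.1.S1_at (-1.64 ± 0.59), OsAffx.2974.1.S1_s_at (-1.48 ± 0.49), 2 readings of the Os.9827 cluster and LOC4349324 (-1.02 ± 0.47). Above Azucena by over 1 log2 unit without passing was Os.8360.1.S1_at (1.54 ± 0.47, limma adjusted p = 0.0652).

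With arsenate 8 members differed between the varieties, 7 higher in Bala and 1 lower. The test called 13.3% of all tested probe sets (5.54% higher, 7.73% lower) and 6.38% of those above 100 in controls (3.59% higher, 2.79% lower). LOC4342187 was higher in Bala by 2.08 ± 0.23 (limma adjusted p = 0.000315) and OsAffx.30196.1.S1_at by 2.61 ± 0.45 (limma adjusted p = 0.00466). LOC4336013 on chromosome 4 read 36.0, 32.4 and 71.8 in Azucena and 126.5, 115.3 and 212.0 in Bala, from control means of 1320 ± 147 and 1714 ± 718, and was higher in Bala by 1.69 ± 0.20 (limma adjusted p = 0.000479). These 3 passed under all 24 alternatives run. Os.8360.1.S1_at was higher by 2.49 ± 0.47, and LOC4329797 by 2.06 ± 0.42. Os.8360.1.S1_at, LOC4329797 and OsAffx.30196.1.S1_at also read higher in Bala without arsenate, by 1.54, 1.73 and 1.78, the first without passing. Their response differences were 0.95, 0.34 and 0.83 (limma adjusted p = 0.681, 0.902 and 0.718). The other members higher in Bala with arsenate differed by between -0.27 and 0.30 in controls. For OsAffx.30196.1.S1_at, Os.8360.1.S1_at and LOC4329797 all Azucena arsenate signals lay below 9.4, so the size of the difference depends on the constant added. It was 1.71, 1.51 and 1.27 with 9.4 added and 3.15, 3.14 and 2.65 with 0.4, and 1.95, 1.49 and 1.15 when signals below 9.4 were counted as 9.4. The call of Os.8360.1.S1_at was lost under 3 of the 24 alternatives, of which 2 left out a whole experiment. Its limma adjusted p reached 0.0823. The call of LOC4329797 was lost under 4, of which 2 left out a whole experiment. The others were without the block (limma adjusted p = 0.124) and without Azucena arsenate 2 (limma adjusted p = 0.0524).

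LOC4337219 on chromosome 4 and OsAffx.4168.1.S1_s_at were higher in Bala by 1.29 ± 0.34 and 1.16 ± 0.29. Their calls were lost under 13 and 10 of the 24 alternatives, with limma adjusted p up to 0.336 and 0.308. For each, 2 of these left out a whole experiment. Without single arrays in turn they were lost for 10 and 6 of the 12, with limma adjusted p up to 0.168 and 0.141. LOC4337219 went from 2110 ± 419 to 140.1 ± 83.2 in Azucena and from 2257 ± 526 to 312.4 ± 50.9 in Bala. The member that was lower in Bala was LOC9269133, which read 33.4, 29.1 and 47.7 with arsenate in Azucena and 9.9, 6.0 and 0.7 in Bala, a difference of -2.55 ± 0.52 (limma adjusted p = 0.0109). Its controls overlapped, at 299.9 ± 124 and 223.5 ± 71.7. The highest Bala arsenate signal of LOC9269133 was close to 9.4, the median of all signals, and the other 2 lay below it. The difference was -1.74 without Bala arsenate 3 and -1.66 with 9.4 added, and it did not pass without experiment 1 (limma adjusted p = 0.0535) or 2 (limma adjusted p = 0.0805).

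**Figure D4:**
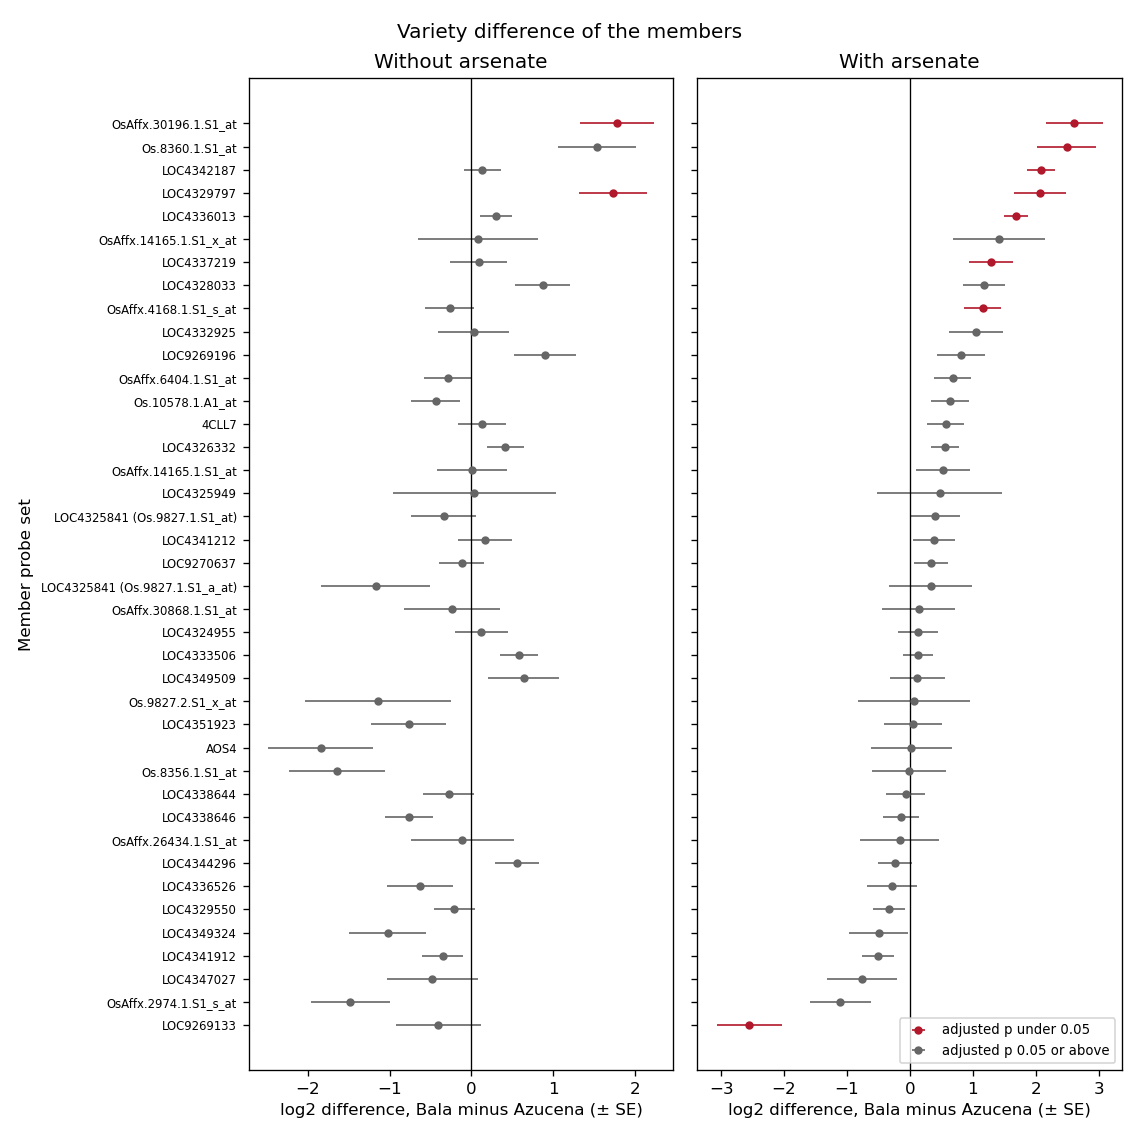
Log2 difference between Bala and Azucena (Bala minus Azucena, bars ± SE, 3 arrays per group) of each member without arsenate (left) and with arsenate (right), in red where the limma adjusted p was under 0.05. Without arsenate 2 members pass, and with arsenate 7 are higher and 1, LOC9269133 at -2.55, is lower in Bala.

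The remaining members had varied levels. Bright in controls were Os.10578.1.A1_at, with means of 3704 ± 194 in Azucena and 2819 ± 844 in Bala falling to 213.7 ± 109 and 309.3 ± 21.7, and LOC4332925 on chromosome 3, with 3323 ± 240 and 3402 ± 451 falling to 111.3 ± 91.9 and 191.0 ± 34.2. LOC4349324 on chromosome 10 went from 2224 ± 371 to 101.5 ± 38.7 in Azucena and from 1221 ± 646 to 73.2 ± 38.3 in Bala. Low with arsenate were Os.8356.1.S1_at, OsAffx.30868.1.S1_at, LOC4336526, LOC4325949, OsAffx.26434.1.S1_at, LOC4324955 and LOC4326332, with arsenate means between 3.87 and 18.3 in either variety. LOC4325949 on chromosome 1 read 0.5, 24.5 and 15.7 in Azucena arsenate arrays and 29.5, 23.4 and 2.0 in Bala.

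LOC4341912, LOC4349509, LOC4324955, LOC4326332, OsAffx.2974.1.S1_s_at and OsAffx.6404.1.S1_at had mean ratios between 10.1 and 25.8 in each variety. LOC4333506, LOC4328033, LOC4344296, LOC4329550 and LOC9269196 had ratios between 6.80 and 12.5. LOC4344296 on chromosome 7 was among those that fell further in Bala, from 491.9 ± 154 to 41.3 ± 13.6 against 324.4 ± 53.6 to 47.7 ± 6.85 in Azucena, though the difference of responses was -0.79 ± 0.38 and did not pass (limma adjusted p = 0.526).

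Other probe sets of the member genes gave a check that the rule did not choose, on the same RNA. Of 4 member genes with another probe set that was not a member, 2 also fell in both varieties by limma. LOC4338644, read by its other probe set, went from 96.8 to 7.77 in Azucena and from 105.6 to 8.80 in Bala, and LOC4349509 went from 58.0 to 4.97 and from 42.7 to 3.67. Both probe sets of LOC4349509 are of one design cluster, so its other reading is not a separate check. For LOC4349509 the log2 change was -3.06 and -3.01, against -3.84 and -4.36 on its member probe set, and all arsenate signals of the other probe set lay below 9.4. Both missed membership only through control signals below 100. LOC4351923 on chromosome 12 did not show it: its member probe set went from 1642 ± 466 to 111.9 ± 118 in Azucena, while Os.54139.1.S1_at, annotated to the same locus, had means of 109.4 and 110.0 there and 86.8 and 89.4 in Bala. LOC4329550 had a second probe set with control means of 16.4 and 31.8, whose change was -0.48 in Azucena and -2.18 in Bala. The fall of LOC4351923 therefore rests on 1 of its 2 probe sets. In all, 9 members carried suffixes that mark probes not unique to 1 transcript: 5 _s_at, 3 _x_at and 1 _a_at. The suffixes differ in the kind of sharing, and which transcripts these probes share was not tested.

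The 27 genes lay on 10 of the 12 rice chromosomes. Chromosome 1 held 6 (22.2%, beside 14.2% of the 8251 genes above 100 in controls), chromosomes 2 and 4 held 4 each (14.8%, beside 13.04% and 8.59%), and chromosome 7 held 3. Chromosomes 3, 5, 6 and 10 held 2 each, 9 and 12 held 1 each, and 8 and 11 held none, beside 6.48% and 3.51% of the genes. Chromosome 6, named in the title of a paper on an arsenate tolerance gene that the labels cite for growth conditions, held LOC4341212 and LOC4341912 (7.41%, beside 7.77%). LOC4338644 and LOC4338646 on chromosome 5 were the 1 pair of members next to each other in the RefSeq order of protein-coding genes, and LOC4324955 and LOC9269196 on chromosome 1 had 13 genes between them. LOC4338646 went from 669.7 ± 67.8 to 42.2 ± 9.91 in Azucena and from 403.5 ± 116 to 38.7 ± 12.3 in Bala, and LOC4338644 from 1640 ± 149 to 152.2 ± 14.1 and from 1420 ± 565 to 154.2 ± 61.3.

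Of 29 measured neighbours that were not members 10 fell and 2 rose in Azucena, and 8 fell and 2 rose in Bala, 8 falling in both by limma at an adjusted p under 0.05. As shares, 34.5% and 27.6% fell, beside the 10.3% and 5.68% of all tested probe sets. LOC4324968, next to LOC9269196, went from a mean of 155.7 to 20.9 in Azucena and from 117.4 to 18.1 in Bala, and LOC4347026, next to LOC4347027, from 285.8 to 43.1 and from 393.4 to 97.1. LOC4337220, next to LOC4337219, went from 2190 to 575 and from 2363 to 833. The other neighbour of LOC9269196, LOC4324970, shares its design cluster and had -0.02 and -0.06. LOC4325067, next to LOC9270637 and of its design cluster, had -1.17 and -1.83. The median change over the 29 neighbours was 0.00 in Azucena and -0.06 in Bala, and whether neighbours share sequence with the members was not tested.

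The tissue label was checked against marker genes. Over 4 root markers measured (OsHKT1;5, Lsi1, Lsi2 and OsPIP2;4) the summed signal of an array lay between 9919 and 10887 without arsenate and between 2409 and 4354 with it in Azucena, and between 11248 and 14406 and between 3084 and 6617 in Bala. Most of the sum was Lsi1 and Lsi2, of the silicon family that the rule left out by name. Their Azucena control means were 6041 and 4148, against 124.1 for OsHKT1;5 and 190.2 for OsPIP2;4. In Bala controls they were 5591 and 3873, against 51.6 and 3163. By limma at an adjusted p under 0.05, OsHKT1;5, Lsi1 and Lsi2 fell in Azucena, and Lsi2 and OsPIP2;4 fell in Bala. The mean of OsHKT1;5 in Bala was 71.8 with arsenate. Over 6 green shoot markers (CAB2R, LHCP, OsGLK1, LP02, ISP and RBCS) the sums lay between 369.6 and 2662 in Azucena controls, 100.2 and 175.6 in Azucena with arsenate, 1254 and 4355 in Bala controls, and 198.9 and 3724 in Bala with arsenate. The highest sums in Azucena controls, in Bala controls and in Bala with arsenate came from the arrays of experiment 3. In Azucena with arsenate the array of experiment 3 had the lowest sum. CAB2R read 1646.7 on Azucena control 3, against 69.5 and 94.4 on the other Azucena controls. On Bala arsenate 3 it read 2252, against at most 163.7 on the other Bala arsenate arrays. The Bala controls read it at 729.9, 1313.1 and 2650.4. These arrays are labelled root, and the source of the green shoot signal was not tested. OsGLK1 and ISP fell in both varieties and LP02 in Azucena. No marker read exactly 0 on any array. As a measure of RNA quality, one pair of GAPDH control probe sets read 7.58 to 8.60 times more at the 3' than the 5' end without arsenate and 8.86 to 23.8 times more with it in Azucena, and 1.43 to 2.17 and 3.53 to 3.78 times in Bala. Actin read 7.56 to 11.5 times more at the 3' end in Bala controls and 15.6 to 20.1 with arsenate, and its Azucena ranges overlapped, at 6.62 to 14.2 and 12.1 to 19.7. The ratio of ef1a was 0.200 to 0.360 in Bala controls and 0.625 to 1.35 with arsenate, and also overlapped in Azucena. Cyclophilin overlapped in both varieties, with ratios of 1.88 to 3.23. On the other GAPDH pair the ranges with and without arsenate overlapped, from 1.94 to 13.9 against 3.24 to 7.57 in Azucena and from 0.984 to 10.8 against 0.650 to 19.7 in Bala. The part of tissue makeup and RNA quality in the members' falls was not tested, and in whole roots fewer cells of a type and less RNA per cell cannot be told apart.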

How the data were processed

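The deposited values are linear intensities, 1 per probe set and array. MAS5 is the tool named in the submitters' processing notes, and its version is not given in the sources used here. The trimmed mean of the deposited signals was the same on every array, and these were used without further scaling. Limma 3.58.1 in R 4.3.3 was fitted to log2(signal + 2.1) of 28461 probe sets with a mean signal above 9.4 over 12 arrays, as 4 groups plus a block for each experiment, which left 6 residual degrees of freedom. Adjusted p values follow Benjamini and Hochberg, within each contrast and over all probe sets tested, and 0.05 was the threshold. Replicates were independent experiments grown at different times, with the 4 conditions of each harvested together, per the series' design text, so the replicate number pairs the samples. Deviations from group means correlated with a median r of 0.131 over 18 pairs of the same number and -0.036 over 36 others. The number of arrays limits the precision. The members, lists and tests were chosen with earlier results of these data known. The rule for named members took those with a gene name, the 10 largest mean falls, up to 5 each way past the threshold in each variety contrast, and 3 on each side of the fold limit, and other members were named so that each is accounted for. Names and chromosomes came from the array annotation and RefSeq (ASM3414082v1, whose coordinates are not used), and all 27 member genes had a RefSeq entry. Of 6 root marker names 4 were measured. The ISP marker was matched whole, as its letters also begin names of isoprenoid enzymes. Promoter motifs were planned but promoter sequences were not used here. In simulated data for the variety contrast without arsenate, over 28461 probe sets, the fit found 9 of 100 spiked changes of 1 log2 unit and 48 of 100 of size 2, and made 3 false calls. The spiked probe sets were drawn at random from all tested, and all others had equal controls in both varieties. The members all read above 100 in controls, so these rates need not hold for them.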

Additional observations from a re-analysis of the deposited data

How the results depend on the processing

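The member count was 66 with the fold limit at 3, 32 at 5, 50 and 30 with control limits of 50 and 200, and 44 and 41 on signals scaled to a common median and quantile normalized. Without single arrays it ran from 40 to 63, and leaving an array out could only add probe sets. Members past the test without arsenate were 0 with no replicate block and 0 with no filter. They were 0 and 5 with the constant at the 5th (0.4) and 50th (9.4) percentile. Without single arrays they were 0 to 5, and without whole experiments 0 to 1. They were 1 when Azucena control 3 and Bala arsenate 3 were both dropped, a setting added after seeing the data. Each of these arrays had the highest green shoot sum of its group. With arsenate they were 8 with no replicate block and 3 to 10 when an array or an experiment was left out. The response difference had 1 member past the test with limma's trend and robust options and 1 with the filter at the 70th percentile (49.3), and 0 in the other 22 settings. Counts of members past the test for the arsenate change were 36 to 40 in Azucena and 35 to 40 in Bala. No call named in the text turned its direction. The cause of these shifts was not tested. Arsenate signals near 0 carry no order, and 3 arrays per group limit what differences could be seen.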
